A study of Homo sapiens with 9 samples.

Results

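EGR, NR4A, IER and *ATF3* genes are immediate-early genes, and their RNA was measured by RNA-seq in A549, a cell line from a human lung adenocarcinoma. The 10 genes described here are *EGR1*, *EGR2*, *EGR3*, *NR4A1*, *NR4A2*, *NR4A3*, *IER2*, *IER3*, *IER5* and *ATF3*, taken by their symbols from the 26364 gene names of the count table. The 9 libraries fell into 4 groups. The control group was A549 cells labelled WT (2 libraries). The *LA* group carried guides against *LOC388942* and *ALK* (sgLOC388942 and sgALK), which were used to make the *LOC388942-ALK* (*LA*) fusion (2 libraries). The sgScr group had both of these guides and a scramble guide (3 libraries), and the sgFOS group had both of them and a guide against *FOS* (2 libraries). The fusion cells were made from A549-Cas9 cells that were grown out from single cells after infection with lentivirus. Whether the libraries of a group came from 1 clone or from separate cultures is not given in the sources used here, so p-values measure only the spread between these libraries, which may be technical.

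Immediate-early genes are switched on within minutes of a growth factor, serum or stress signal, without new protein being made first. Kinase cascades such as the MAPK cascade reach factors already bound at their promoters, among them *SRF* with its ELK partners at CArG boxes and CREB at cAMP response elements (CREs), and many of the RNAs are short-lived. The EGR proteins are zinc-finger transcription factors, the NR4A proteins are orphan nuclear receptors, *ATF3* is a bZIP factor of the stress response, and the IER genes were named for their early induction. *FOS*, which the study edited, belongs to the same class of genes and forms the AP-1 factor with *JUN* proteins.

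The promoters printed here show the DNA elements by which this class of genes is commonly grouped. RefSeq promoter windows (assembly GRCh38.p14, the 250 bases before a start site, 5′ to 3′ along the gene) were found for *EGR1*, *EGR2*, *NR4A1*, *NR4A3*, *IER2*, *IER5* and *ATF3*. *EGR3*, *NR4A2* and *IER3* had no entry. The assembly differs from the hg19 build of the counts. In *EGR1* and *EGR2* capitals mark CArG boxes, and in *NR4A3* they mark the CRE half-site TGACG on either strand.
*EGR1* (chr5:138465229-138465478, plus strand): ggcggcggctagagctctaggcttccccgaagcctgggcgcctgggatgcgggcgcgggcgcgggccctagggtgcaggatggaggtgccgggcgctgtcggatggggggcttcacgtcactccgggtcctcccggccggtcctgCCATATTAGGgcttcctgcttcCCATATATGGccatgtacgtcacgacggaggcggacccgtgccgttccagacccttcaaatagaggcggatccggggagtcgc
*EGR2* (start 3 of 3, chr10:62816367-62816616, minus strand): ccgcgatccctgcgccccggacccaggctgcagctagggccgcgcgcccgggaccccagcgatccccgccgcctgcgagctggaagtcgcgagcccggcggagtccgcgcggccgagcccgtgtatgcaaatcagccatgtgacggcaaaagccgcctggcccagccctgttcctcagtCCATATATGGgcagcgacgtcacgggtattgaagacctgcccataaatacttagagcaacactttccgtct
*NR4A3* (chr9:99821635-99821884, plus strand): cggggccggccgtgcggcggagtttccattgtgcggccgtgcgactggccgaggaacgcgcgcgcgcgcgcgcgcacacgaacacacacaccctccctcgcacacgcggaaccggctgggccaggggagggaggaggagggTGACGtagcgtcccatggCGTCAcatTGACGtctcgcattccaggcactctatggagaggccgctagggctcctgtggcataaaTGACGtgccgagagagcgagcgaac

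*EGR1* held 2 CArG boxes, from base -105 to -96 and from base -83 to -74, counted back from the start site. *EGR2* held 1, from base -71 to -62, in 1 of its 3 windows. That window was printed because it holds the box, and the other windows of *EGR2* held none of the 6 motifs searched. A CArG box on either strand was found in 1.16% of the 35116 windows of the same length. *NR4A3* held no CArG box and 4 half-sites TGACG, which 21.2% of all windows contained at least once. *EGR1* and *EGR2* also held 2 half-sites each, those of *EGR2* in the printed window, and *IER2* held 1. *EGR1* held 1 match to the EGR motif GCGNGGGCG, found in 8.41% of windows. *ATF3* held the letters TATAAA in 1 of its 2 windows, as did 10.7% of all windows. None of the windows of the 7 genes held the full CRE TGACGTCA (1.65% of all windows), which contains the half-site, or the AP-1 motif TGANTCA (6.57%). The windows of *NR4A1* and *IER5* held none of the 6 motifs searched. These matches describe letters in a window and were not tested as binding sites.

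Total counts per library ranged from 14507228 to 20456341, and levels are given as counts per 1e6 after TMM scaling (CPM). *FOS*, counted over the whole gene, had 1008 and 1113 counts in the sgFOS libraries against 4198, 4037 and 3528 in those of sgScr. This was a fall by 1.48 on the log2 scale (standard error 0.044, adjusted p = 2e-25, edgeR's quasi-likelihood test with Benjamini-Hochberg adjustment over all genes tested, as for all adjusted p-values here). *ALK* had at most 15 counts in any library, and 0 counts in both control libraries. The replicates lay far apart in the control and *LA* groups, where the chi-square between replicates, per degree of freedom, was 125 and 58.1, against 1.74 for sgFOS and 1.76 to 2.65 for sgScr. The *LA* and sgScr groups also differed in more than the guide named in the labels. *ADGRL2*, singled out after its values were seen, had 0 CPM in both *LA* libraries but 9.61, 9.57 and 9.07 CPM in sgScr, 5.63 and 7.05 CPM in sgFOS and 9.88 and 20.1 CPM in control. The epithelial keratin *KRT8* was between 2871 and 10270 CPM, whereas the immune genes *PTPRC* and *CD3E* had 0 counts in all 9 libraries. Of the alveolar type 2 markers, *SFTPA1* was at 0 throughout and *NAPSA* reached 4.39 CPM.

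Among the EGR genes, *EGR1* was the one counted in depth. It had 4.78 and 4.31 CPM in control cells, 171 and 54.2 CPM in *LA* cells, 247, 256 and 235 CPM in sgScr cells and 177 and 186 CPM in sgFOS cells. Control was lowest in both libraries and sgScr highest in all 3, while the *LA* libraries lay on either side of a wide gap and below all sgFOS and sgScr libraries. *EGR2*, a factor of Schwann cell myelination and hindbrain development, had 0 counts in both control libraries, 10 and 0 counts in *LA*, 8, 5 and 1 counts in sgScr and 0 and 2 counts in sgFOS. *EGR3*, a factor of muscle spindle development, had 0 counts in both control libraries, 21 and 6 in *LA*, 3, 1 and 4 in sgScr and 3 and 3 in sgFOS. Both genes were below the filter on low counts in every comparison, so 8 of the 10 genes were tested. A count of 0 allows a limit of 3 counts per control library. The mean of *EGR3* in *LA* was 4.38-fold this limit, a ratio that was 1.81-fold without *LA* replicate 1 and 6.95-fold without *LA* replicate 2. For *EGR2* the ratio was 1.66-fold in *LA*, with none left without *LA* replicate 1 and 3.31-fold without *LA* replicate 2, and 1.22-fold in sgScr. These ratios cover counting error in the control libraries only, and not in the few counts of *LA* and sgScr. Without the filter on low counts edgeR did not call *EGR2* in *LA* against control (adjusted p = 0.189) or in sgScr against control (adjusted p = 0.0927).

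*NR4A1* was the most abundant of the NR4A genes, and its 4 groups kept a different order from *EGR1*. It had 44.4 and 31.9 CPM in control, 124 and 112 CPM in *LA*, 63.9, 62.0 and 51.7 CPM in sgScr and 27.8 and 36.3 CPM in sgFOS. *LA* was highest and sgScr next without overlap, and the control and sgFOS libraries overlapped. *NR4A2*, known for its role in dopamine neurons, had 3.36 and 5.01 CPM in control, 20.4 and 14.0 CPM in *LA*, 9.42, 10.1 and 8.16 CPM in sgScr and 4.20 and 3.86 CPM in sgFOS. It kept the order of *NR4A1*, with control and sgFOS again overlapping. *NR4A3* was low, with 3.04 and 2.42 CPM in control, 3.19 and 12.5 CPM in *LA*, 1.14, 1.26 and 1.84 CPM in sgScr and 0.881 and 0.865 CPM in sgFOS. The 2 *LA* libraries lay above the other groups, but *LA* replicate 1 was only just above control.

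The IER genes, which share a name and no protein family as a whole, each had their own order of groups. *IER2* had 170 and 82.4 CPM in control, 141 and 55.6 CPM in *LA*, 208, 209 and 214 CPM in sgScr and 175 and 180 CPM in sgFOS. Its control and *LA* libraries overlapped, and sgScr lay above sgFOS. *IER3*, which encodes a regulator of cell survival, had 171 and 143 CPM in control, 130 and 139 CPM in *LA*, 147, 154 and 150.0 CPM in sgScr and 140 and 137 CPM in sgFOS. Its 4 groups lay within a narrow range, and control overlapped sgScr. *IER5*, a regulator of the heat shock factor HSF1, had 54.4 and 71.4 CPM in control, 135 and 279 CPM in *LA*, 81.9, 80.6 and 85.9 CPM in sgScr and 113 and 107 CPM in sgFOS. *LA* was highest, and both sgFOS libraries lay above all sgScr libraries. *ATF3* had 3.36 and 2.54 CPM in control, 17.3 and 9.16 CPM in *LA*, 7.09, 6.32 and 6.60 CPM in sgScr and 5.36 and 6.39 CPM in sgFOS. *LA* was highest and control lowest, and the sgScr and sgFOS libraries overlapped.

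**Figure D1:**
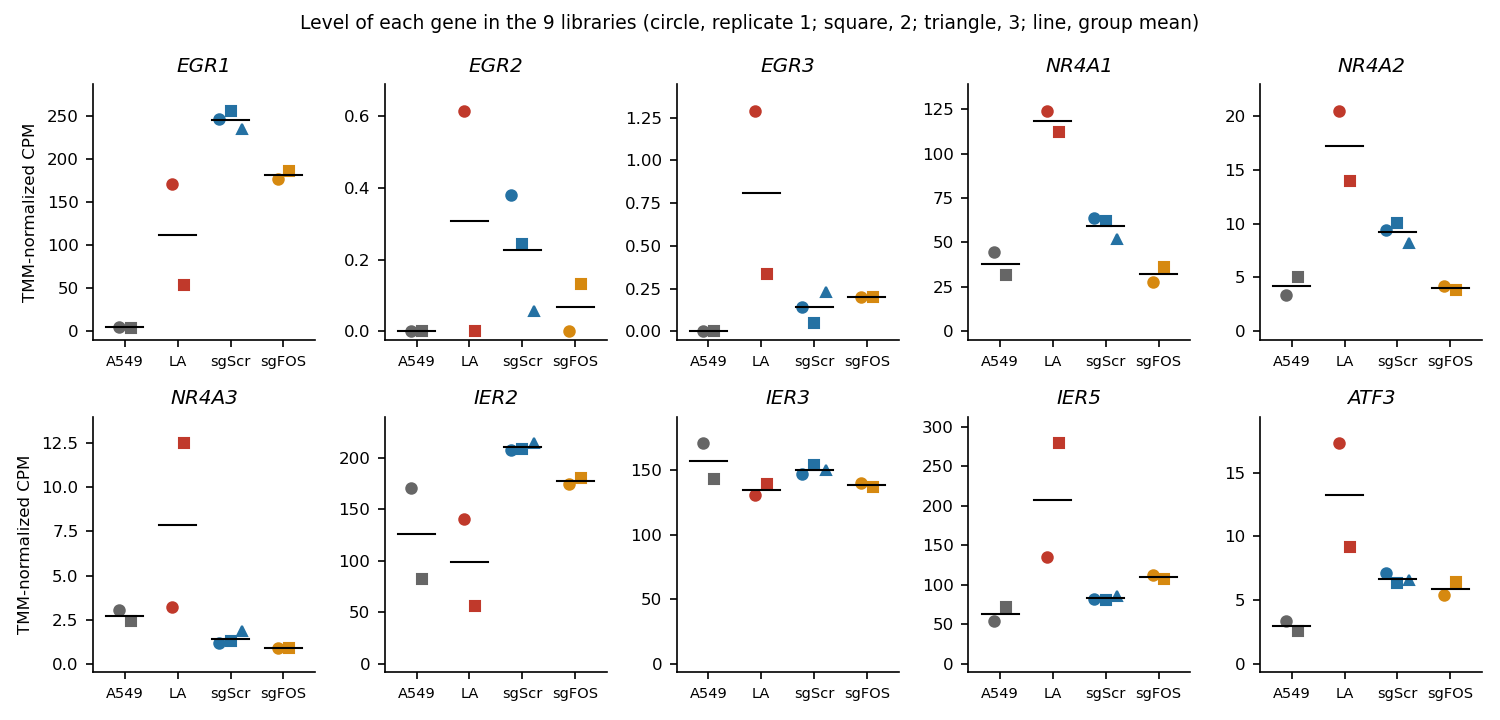
Level of the 10 genes in the 9 libraries as TMM-normalized CPM on linear axes that differ between panels, with each point a library, its shape the replicate number and the line the group mean. *EGR1* was lowest in control (4.78 and 4.31 CPM) and highest in sgScr (235 to 256 CPM), whereas *NR4A1*, *NR4A2*, *NR4A3*, *IER5* and *ATF3* were highest in *LA*.

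Per kilobase of transcript, which allows levels to be compared between genes, *IER3* was the highest of the 10 in control cells with a mean of 127 CPM per kb, followed by *IER2* with 59.8 CPM per kb. *NR4A1* had 15.4, *IER5* had 15.0 and *EGR1* had 1.45 CPM per kb there. In sgScr cells *IER3* had 121, *IER2* had 99.6 and *EGR1* had 78.4 CPM per kb. *EGR1* thus moved from below *NR4A1* and *IER5* in control to above both in sgScr, where these had 23.8 and 19.7 CPM per kb. *ATF3*, *NR4A2* and *NR4A3* had 3.44, 2.65 and 0.252 CPM per kb in sgScr.

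The first comparison asked how RNA levels differed between *LA* cells and control A549 cells. *EGR1*, *NR4A1*, *NR4A2*, *IER5* and *ATF3* were higher in *LA*, and none of the 8 tested genes was called lower. Across all 14425 genes tested, 9.57% were called higher and 9.94% lower, so the 5 of 8 called higher stand against a background of 9.57%. In either direction 19.5% of genes were called, with 23.5% by DESeq2 and 19.8% by limma with sample weights, and 34.5% had an unadjusted p under 0.05. The median log2 fold change was 1.65 over the 8 genes and 0.044 over all genes tested.

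*EGR1* rose by 4.61 on the log2 scale (standard error 0.54, adjusted p = 9.79e-06), with both *LA* libraries above both control libraries. *ATF3* rose by 2.15 (standard error 0.54, adjusted p = 0.00775) and *NR4A2* by 2.01 (standard error 0.50, adjusted p = 0.00756). *NR4A1* rose by 1.61 (standard error 0.40, adjusted p = 0.00776) and *IER5* by 1.68 (standard error 0.43, adjusted p = 0.00908). The groups did not overlap for these 5 genes. The share of all genes without overlap was not counted, so this adds nothing to the calls. *NR4A3* was not called at 1.49 (standard error 0.62, adjusted p = 0.0879), and its value ran from 0.23 without *LA* replicate 2 to 2.14 without *LA* replicate 1. Without the filter on low counts it was called (adjusted p = 0.045), as was *EGR3* (adjusted p = 0.0137), and with all 9 libraries in one fit *NR4A3* was called too (adjusted p = 0.0466). Not called were *IER2* at -0.37 (adjusted p = 0.606) and *IER3* at -0.24 (adjusted p = 0.703). The sign of *IER2* turned to 0.17 without *LA* replicate 2 and to 0.19 without control replicate 1.

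With 1 of the *LA* libraries left out, several of these calls were lost while the value of *NR4A1* stayed near that of the full fit. In these fits the single library left is assumed to vary like the libraries of the other group. Without *LA* replicate 1, *EGR1* alone remained called, at 3.52, and *NR4A1* (1.50, adjusted p = 0.198), *NR4A2* (1.67, adjusted p = 0.187), *IER5* (2.09, adjusted p = 0.0625) and *ATF3* (1.58, adjusted p = 0.258) were not. Without *LA* replicate 2, *EGR1* and *ATF3* remained called, whereas *NR4A1* (1.71, adjusted p = 0.164), *NR4A2* (2.28, adjusted p = 0.053) and *IER5* (1.10, adjusted p = 0.426) were not. Without control replicate 1, *IER5* was not called (1.46, adjusted p = 0.0537). Fold changes also rose with transcript length over all genes (Spearman correlation 0.590, across genes, which are not independent replicates). With a correction for length and GC content the values were 4.69 for *EGR1*, 2.04 for *NR4A1*, 1.82 for *NR4A2*, 1.33 for *IER5* and 2.53 for *ATF3*, and all 5 were called.

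**Figure D2:**
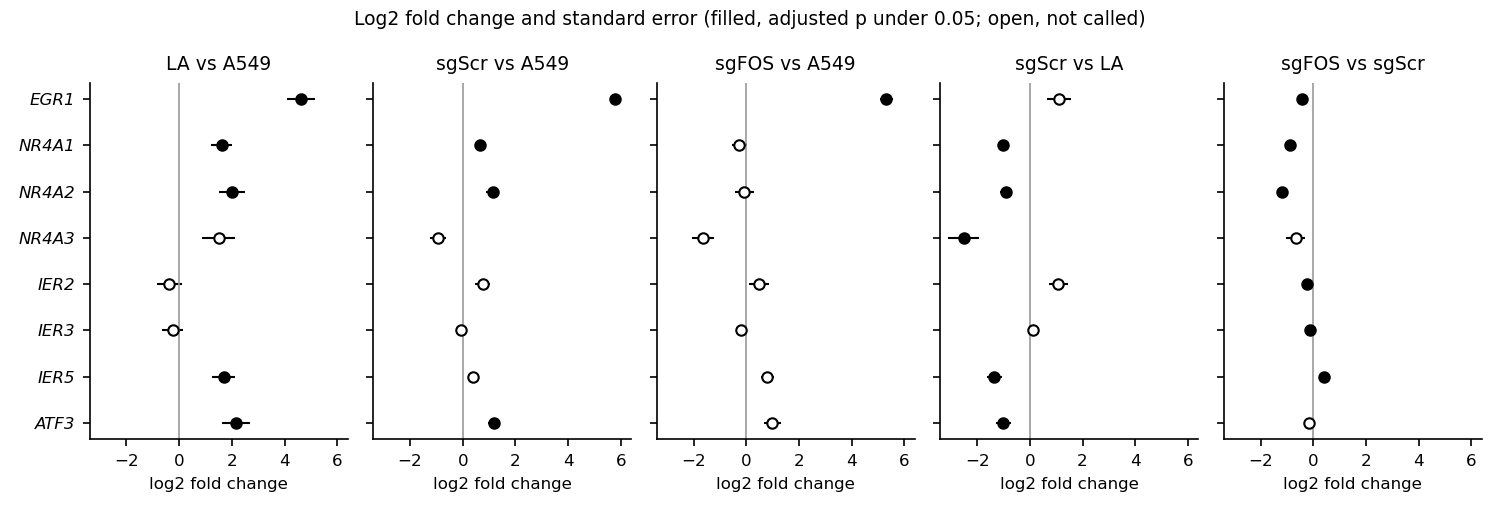
Log2 fold change with its standard error for the 8 genes tested, in 5 comparisons of 2 groups each, with filled points for an adjusted p under 0.05. *EGR1* was called higher in the 3 comparisons with control cells, at 4.61 for *LA*, 5.77 for sgScr and 5.31 for sgFOS. Between sgFOS and sgScr the 8 values ran from -1.19 for *NR4A2* to 0.41 for *IER5*.

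The 2 *LA* libraries did not differ from each other in the same direction for every gene. *EGR1* was 3.15-fold, *IER2* 2.54-fold, *ATF3* 1.89-fold and *NR4A2* 1.46-fold higher in *LA* replicate 1 than in replicate 2, and *FOS* was 3.61-fold higher there. In contrast, *NR4A3* was 3.92-fold and *IER5* 2.07-fold higher in replicate 2. *NR4A1* and *IER3* were nearly level, with ratios of 1.11 for replicate 1 over replicate 2 and 1.07 for replicate 2 over replicate 1. In the control group *IER2* was 2.07-fold higher in replicate 1, whereas *EGR1* differed by 1.11-fold. The ratio of the sgFOS libraries stayed within 1.31-fold for all 8 genes, the widest being that of *NR4A1*, higher in replicate 2.

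**Figure D3:**
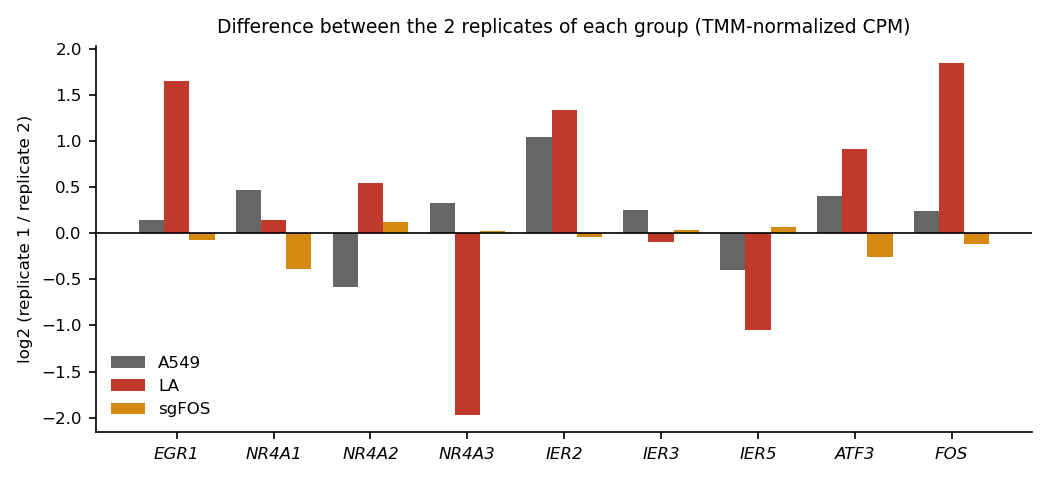
Log2 ratio of replicate 1 over replicate 2 in TMM-normalized CPM for the 8 tested genes and *FOS*, in the 3 groups with 2 libraries. The *LA* bars reach 1.65 for *EGR1* and 1.85 for *FOS* but -1.97 for *NR4A3* and -1.05 for *IER5*, while the sgFOS bars run from -0.39 to 0.12.

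The second comparison asked how *LA* cells with the *FOS* guide differed from *LA* cells with the scramble guide. *EGR1*, *NR4A1*, *NR4A2*, *IER2* and *IER3* were lower in sgFOS than in sgScr cells, and *IER5* was higher. Among the 14196 genes tested, 10.5% were called lower and 12.2% higher, against 5 and 1 of the 8 genes. In either direction 22.7% were called, with 13.8% by DESeq2 and 24.3% by limma, and 33.9% had an unadjusted p under 0.05. The median log2 fold change was -0.34 over the 8 genes and -0.0015 over all genes tested.

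The largest called changes were those of *NR4A2* and *NR4A1*. *NR4A2* fell by 1.19 on the log2 scale (standard error 0.16, adjusted p = 3.34e-07) and *NR4A1* fell by 0.88 (standard error 0.080, adjusted p = 3.98e-11). The groups did not overlap for either gene, and here too the share of all genes without overlap was not counted. *NR4A3*, with 24, 26 and 32 counts in sgScr and 13 and 13 counts in sgFOS, had a value of -0.67 (standard error 0.37, adjusted p = 0.2) and was not called at this depth. *EGR1* fell by 0.43 (standard error 0.040, adjusted p = 5.53e-11), from a mean of 246 ± 10.7 CPM (SD, n = 3) to 182 ± 6.12 CPM (SD, n = 2).

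Of the IER genes, *IER2* fell by 0.24 (standard error 0.037, adjusted p = 5.19e-06) and *IER3* by 0.11 (standard error 0.039, adjusted p = 0.0337), while *IER5* rose by 0.41 (standard error 0.044, adjusted p = 2.39e-09). *IER5* went from 82.8 ± 2.73 CPM (SD, n = 3) to 110 ± 3.91 CPM (SD, n = 2). The value of *ATF3* was -0.18 (standard error 0.16, adjusted p = 0.452). *IER3* lost its call without sgFOS replicate 1 (adjusted p = 0.0913), without sgFOS replicate 2 (adjusted p = 0.244) or without sgScr replicate 2 (adjusted p = 0.15), and also in DESeq2 (adjusted p = 0.116), and the other 5 calls held without any one library. In a fit of all 9 libraries, which shares the wider spread of the control and *LA* groups, none of the 6 genes was called, with adjusted p-values of at least 0.592 and nearly the same values, such as -1.19 for *NR4A2*, -0.88 for *NR4A1*, -0.44 for *EGR1* and 0.41 for *IER5*. Fold changes rose with GC content over all genes (Spearman correlation 0.261, across genes), and with the length and GC correction *EGR1* was at -0.49, *NR4A1* at -0.96, *NR4A2* at -1.21, *IER2* at -0.33, *IER3* at -0.16 and *IER5* at 0.38, all 6 called. In bulk RNA, fewer cells with a transcript and less of it per cell cannot be told apart.

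The third comparison set sgScr against *LA* cells, both with the fusion guides. *NR4A1*, *NR4A2*, *NR4A3*, *IER5* and *ATF3* were lower in sgScr, and none of the 8 genes was called higher. Over all 14521 genes tested, 12.3% were called lower and 10.6% higher. The share in either direction was 22.9%, with 22.2% by DESeq2 and 12.7% by limma, and 39.7% had an unadjusted p under 0.05. The median was -0.96 over the 8 genes and -0.016 over all genes tested.

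*NR4A3* fell by 2.51 (standard error 0.58, adjusted p = 0.03), *IER5* by 1.34 (standard error 0.28, adjusted p = 0.0229) and *NR4A1* by 1.02 (standard error 0.12, adjusted p = 0.00491). *ATF3* fell by 1.01 (standard error 0.27, adjusted p = 0.0464) and *NR4A2* by 0.92 (standard error 0.20, adjusted p = 0.0256). *EGR1*, at 1.11 (standard error 0.44, adjusted p = 0.115), and *IER2*, at 1.08 (standard error 0.36, adjusted p = 0.0771), pointed the other way without being called. *NR4A2*, *NR4A3*, *IER5* and *ATF3* were not called without any 1 of the 3 sgScr libraries, with adjusted p-values from 0.0946 to 0.162, although their values stayed close, at -2.36 to -2.73 for *NR4A3*, -1.33 to -1.37 for *IER5*, -0.97 to -1.05 for *ATF3* and -0.84 to -0.99 for *NR4A2*. *NR4A1* kept its call. The choice of *LA* library moved the values further. Without *LA* replicate 1 and without *LA* replicate 2 they were -3.17 and -1.21 for *NR4A3*, -1.76 and -0.72 for *IER5*, -0.46 and -1.39 for *ATF3*, and -0.60 and -1.16 for *NR4A2*. In the same order *EGR1* was at 2.18 and 0.51 and *IER2* at 1.91 and 0.56. The spread in these fits came from the sgScr libraries alone, so their calls say nothing of the spread between *LA* libraries. With limma and sample weights *NR4A2* (adjusted p = 0.0574) and *ATF3* (adjusted p = 0.0611) were not called, whereas *EGR1* (1.36, adjusted p = 0.00292) and *IER2* (1.24, adjusted p = 0.00177) were. The scramble guide, and any other difference between these cells such as that in *ADGRL2*, cannot be told apart here.

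The sgScr and sgFOS groups were also set against the control libraries that the first comparison used, so these values are not independent of it. In sgScr cells *EGR1* was higher by 5.77 (standard error 0.18, adjusted p = 0.000732), *ATF3* by 1.19 (standard error 0.22, adjusted p = 0.0114), *NR4A2* by 1.14 (standard error 0.26, adjusted p = 0.0182) and *NR4A1* by 0.65 (standard error 0.19, adjusted p = 0.0406). These 4 of 8 compare with 19.8% of the 14482 genes tested called higher and 21.7% called lower, or 41.5% in either direction. DESeq2 called 41.2% and limma 26.4% of genes, and 52.9% had an unadjusted p under 0.05. *NR4A3*, at -0.94 (adjusted p = 0.0585), *IER2*, at 0.75 (adjusted p = 0.084), *IER5*, at 0.40 (adjusted p = 0.113), and *IER3*, at -0.052 (adjusted p = 0.782), were not called. With limma and sample weights *NR4A1* (adjusted p = 0.14), *NR4A2* (adjusted p = 0.243) and *ATF3* (adjusted p = 0.313) were not called and *IER2* was (adjusted p = 0.0146). Without any 1 of the 3 sgScr libraries *EGR1* alone kept its call. *IER2* was called in 4 of 8 alternatives, among them DESeq2 (adjusted p = 0.044), library size alone (adjusted p = 0.0278) and the length and GC correction (1.54, adjusted p = 0.00129). Fold changes rose with transcript length here too (Spearman correlation 0.614, across genes). The control libraries gave different values, with *IER2* at 1.35 without control replicate 1 and 0.31 without control replicate 2, *IER5* at 0.21 and 0.61, *NR4A1* at 0.90 and 0.43, *NR4A3* at -0.79 and -1.11 and *IER3* at 0.067 and -0.18. With 1 control library the spread comes from sgScr alone, so no call is given for these values.

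In sgFOS cells *EGR1* was still 5.31 above control (standard error 0.25, adjusted p = 0.0363), and it was the single gene called among 14031 tested, or 0.00713%. With scaling by library size alone it was not called (adjusted p = 0.0539). The unadjusted p was under 0.05 for 5286 of these genes (37.7%), and DESeq2 called 3662 genes (26.7%) and limma with sample weights 3807 genes (27.1%). *NR4A1*, at -0.26 (adjusted p = 0.524), and *NR4A2*, at -0.069 (adjusted p = 0.904), were not called. *NR4A2* turned positive without sgFOS replicate 2 (0.011) and without control replicate 2 (0.24). *NR4A3* was at -1.64 (adjusted p = 0.0616), *ATF3* at 0.99 (adjusted p = 0.0981), *IER5* at 0.79 (adjusted p = 0.0859), *IER2* at 0.49 (adjusted p = 0.368) and *IER3* at -0.19 (adjusted p = 0.547). Without control replicate 1 and without control replicate 2 the values were 1.09 and 0.036 for *IER2*, -0.012 and -0.49 for *NR4A1*, 0.60 and 0.99 for *IER5*, 1.19 and 0.78 for *ATF3*, and -1.48 and -1.81 for *NR4A3*. These fits take their spread from the sgFOS pair alone, so no call is given for them. With all 4 libraries, fold changes rose with transcript length in this comparison as well (Spearman correlation 0.627, across genes). With the length and GC correction *EGR1* (5.30), *IER2* (1.22), *ATF3* (1.30) and *NR4A3* (-2.27) were called, and the other genes tested were not.

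A list of 38 other immediate-early genes was counted beside the 10 genes. In *LA* against control, 18 of 36 tested were called higher (50%) and 3 lower (8.33%), beside 9.57% and 9.94% of all genes, with a median of 1.22. *FOSB*, at 1.10 and 0.118 CPM in the control libraries, rose by 7.10 (adjusted p = 1.94e-05), *FOS* by 4.41 (adjusted p = 2.01e-05), *CTGF*, a matrix-associated growth regulator, by 2.90 (adjusted p = 0.00135) and the kinase *SGK1* by 2.41 (adjusted p = 0.00163). *FOS* is a gene the study chose from these samples, so it adds no independent evidence of direction, although it is counted among the 18. In sgFOS against sgScr, 13 of 36 were called lower (36.1%) and 6 higher (16.7%), beside 10.5% and 12.2% of all genes, with a median of -0.081. The 13 include *FOS*, which the guide targets, so this share is not free of the edit itself. *FOSB* fell by 1.54 (adjusted p = 2.57e-14), while the growth-arrest genes *GADD45A* and *BTG2* rose by 0.70 (adjusted p = 3.87e-09) and 0.69 (adjusted p = 6.39e-06).

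**Figure D4:**
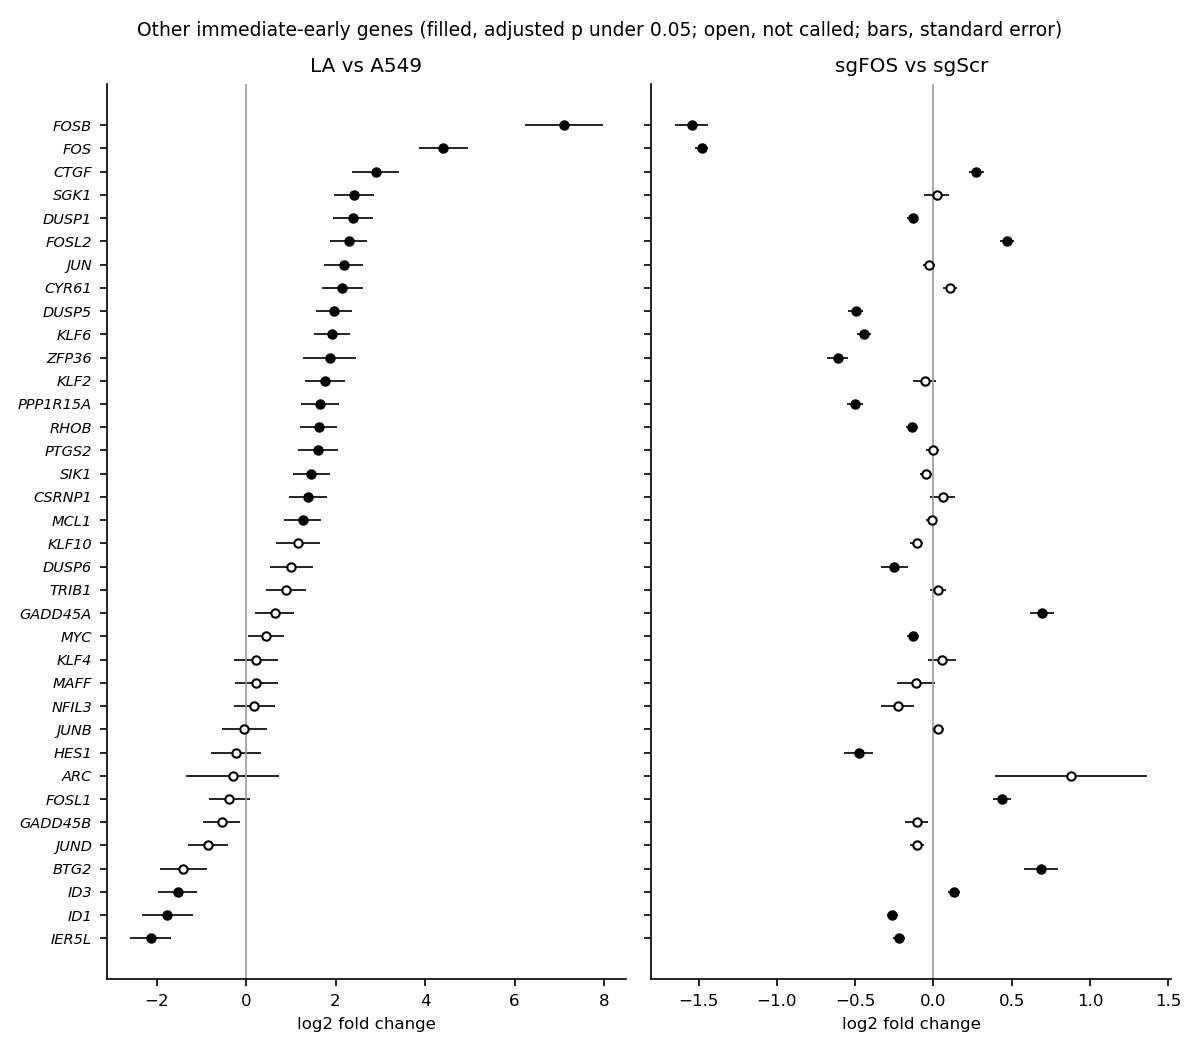
Log2 fold change with its standard error for the other immediate-early genes tested, ordered by their value in *LA* against control, with filled points for an adjusted p under 0.05. In *LA* 18 of 36 genes were called higher, beside 9.57% of all genes, led by *FOSB* (7.10) and *FOS* (4.41). In sgFOS 13 of 36 were called lower, beside 10.5% of all genes, led by *FOSB* (-1.54) and *FOS* (-1.48), the gene that the guide targets.

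In sgScr against *LA*, 4 of 36 genes of this list (11.1%) were called higher and 9 (25%) lower, beside 10.6% and 12.3% of all genes, with *BTG2* up by 1.86 (adjusted p = 0.00401), *CTGF* at -1.47 (adjusted p = 0.029), *SGK1* at -1.20 (adjusted p = 0.00335) and *DUSP5*, a MAPK phosphatase, at -1.11 (adjusted p = 0.00973). In sgScr against control, 23 of 37 were called higher (62.2%) and 3 lower (8.11%), beside 19.8% and 21.7% of all genes, led by *FOSB* (6.72), *FOS* (4.34), *JUN* (3.32) and *KLF6* (2.20). The 23 include *FOS*, the gene chosen by the study. In sgFOS against control edgeR called 0 of 35, where 1 of all 14031 genes was called. At an unadjusted p under 0.05, 22 were higher and 3 lower, and DESeq2 called 19 higher and 3 lower and limma with sample weights 16 and 3. *FOS* was at 2.83 there (standard error 0.24, adjusted p = 0.0502) and was called in 6 of 8 alternatives.

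Of 18 factors and kinases that act on immediate-early promoters, 17 were tested in each comparison. The coactivators *EP300* (2.19, adjusted p = 0.00147) and *CREBBP* (1.48, adjusted p = 0.0132) and the *SRF* partner *MKL2* (1.46, adjusted p = 0.0158) were higher in *LA* than in control, and none was lower. These higher calls were 17.6% of the 17, beside 9.57% of all genes called higher and 9.94% lower. With the length and GC correction only 1 of the 17 was called higher and 0 lower. In sgFOS against sgScr, 2 were higher (11.8%) and 4 lower (23.5%), beside 12.2% and 10.5% of all genes. *SRF*, which binds CArG boxes, rose by 0.39 (adjusted p = 2.76e-06), while *RPS6KA5* (-0.62, adjusted p = 0.00464), *ELK4* (-0.29, adjusted p = 0.000596) and *RPS6KA3* (-0.24, adjusted p = 4.29e-06) were lower. In sgScr against *LA*, 3 were higher (17.6%) and 1 lower (5.88%), beside 10.6% and 12.3% of all genes. *SRF* was at 0.57 (adjusted p = 0.0135) and *MKL1* at -0.46 (adjusted p = 0.0306). Limma with sample weights called 0 of the 17 in this comparison, as did the fit of all 9 libraries. In sgScr against control, 8 were higher (47.1%) and 2 lower (11.8%), beside 19.8% and 21.7% of all genes. In sgFOS against control edgeR called 0 of 17, while 6 were higher and 2 lower at an unadjusted p under 0.05, and DESeq2 called 6 higher and limma 8 higher.

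Among the partners of these proteins, 4 of 5 genes were tested. In *LA* against control 1 was called higher (25%), beside 9.57% of all genes. In sgFOS against sgScr 1 was called lower (25%), beside 10.5%. In sgScr against *LA* 2 were higher (50%) and 1 lower (25%), beside 10.6% and 12.3%. In sgScr against control 1 was higher (25%), beside 19.8%. *NAB1*, a co-repressor of EGR factors, was higher in *LA* than in control (1.38, adjusted p = 0.0269), lower in sgFOS than in sgScr (-0.17, adjusted p = 0.0106) and lower in sgScr than in *LA* (-0.77, adjusted p = 0.00376). DESeq2 called 0 of the 4 in sgFOS against sgScr. With the length and GC correction 0 of the 4 were called in *LA* against control. *NAB2*, the other EGR co-repressor, was called in sgScr against *LA*, at 1.27 (adjusted p = 0.00306), where *RXRA*, a receptor that pairs with *NR4A1* and *NR4A2*, was at 0.52 (adjusted p = 0.0233). *RXRA* was also higher in sgScr than in control (0.97, adjusted p = 0.0185). In sgFOS against control edgeR called 0 of the 4, where 1 of all 14031 genes was called. At an unadjusted p under 0.05, by DESeq2 and by limma, 1 of the 4 was higher there.

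Of the 9 genes of the ATF4 stress response, a pathway that induces *ATF3*, edgeR called 0 in *LA* against control and 0 in sgFOS against control. Of all genes tested, 19.5% were called in the first of these comparisons and 1 of 14031 in the second. At an unadjusted p under 0.05, 1 was higher and 2 lower in the first and 1 higher and 1 lower in the second. DESeq2 called 1 lower in the first and 0 in the second, and limma 0 in the first and 1 higher in the second. In sgFOS against sgScr, *SESN2* rose by 0.76 (adjusted p = 2.47e-07) and *ASNS* (-0.38), *CEBPB* (-0.23) and *XBP1* (-0.19) were lower. These were 11.1% of the 9 higher and 33.3% lower, beside 12.2% and 10.5% of all genes. In sgScr against *LA*, *ASNS* (1.02), *CEBPB* (0.91) and *HSPA5* (0.58) were higher, while *ATF3* was lower. The higher calls were 33.3% of the 9, beside 10.6% of all genes. *HSPA5* was the 1 gene called in sgScr against control (0.84, adjusted p = 0.00898), or 11.1% of the 9, beside 19.8% of all genes called higher. With the length and GC correction 5 of the 9 were called higher and 0 lower there, beside 2601 of all genes higher and 2695 lower.

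Heat shock genes, 6 in the list, were counted because handling of cells can induce them together with immediate-early genes. *HSPB1* was lower in *LA* than in control (-2.04, adjusted p = 0.00597), and its 2 control libraries had 1407 and 442 CPM. It was the 1 of 6 called there (16.7%), beside 9.94% of all genes called lower. With the length and GC correction 0 of the 6 were called in *LA* against control. *HSPA1A* was higher in sgScr than in *LA* (1.76, adjusted p = 0.00183), as were *HSPA1B* (1.73) and *HSPB1* (0.51). These were 50% of the 6, beside 10.6% of all genes called higher. In sgScr against control, *HSPA1B* (1.61) and *HSPA1A* (1.58) were higher and *HSPB1* (-1.47) was lower. These were 33.3% of the 6 higher and 16.7% lower, beside 19.8% and 21.7% of all genes. *HSPA1A* (-0.12) and *HSPA1B* (-0.14) were lower and *HSPB1* (0.26) higher in sgFOS than in sgScr, beside 10.5% of all genes lower and 12.2% higher. DESeq2 called 1 of the 6 higher and 0 lower there. In sgFOS against control edgeR called 0 of the 6, where 1 of all 14031 genes was called. At an unadjusted p under 0.05, 2 were higher there, while DESeq2 called 2 higher and 1 lower and limma 3 higher and 1 lower. *HSPA1A* and *HSPA1B* are near-identical copies, so their counts are uncertain. The part of handling in the levels of *EGR1*, *NR4A1* and the other genes was not tested.

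Markers of other cell types were at or near 0 apart from a few. Summed fibroblast markers were 16.4 to 17.1 CPM in *LA*, 7.79 to 18.5 CPM in control, 7.01 to 7.99 CPM in sgScr and 9.45 to 10.4 CPM in sgFOS, mostly from *COL1A1*. Summed endothelial markers did not exceed 1.06 CPM in any library. Summed epithelial markers, mostly *KRT8* and *KRT18*, were 10367 to 17809 CPM in control, 5523 to 10365 CPM in *LA*, 4698 to 5011 CPM in sgScr and 5511 to 5674 CPM in sgFOS. *CDH1* went the other way, with 18.5 and 21.9 CPM in control and 98.9 and 101 CPM in *LA*. It had 68.9 to 70.8 CPM in sgScr and 70.7 and 70.9 CPM in sgFOS. *EPCAM* and *KRT19* followed neither order. The immune sum, from *CD68* and *CD14*, was 54.2 to 77.1 CPM in control, 39.4 to 39.9 CPM in *LA*, 38.0 to 39.2 CPM in sgScr and 54.0 to 56.7 CPM in sgFOS. Their part in the levels described was not tested.

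Genes whose pattern was most like that of 4 of the genes were sought over the 9 libraries by Pearson correlation of log2 CPM among 11898 genes, as a description of libraries that share their groups. *MYH10* (r = 0.996) and *UBXN7* (0.995) were among the nearest to *EGR1*. *SYT15* (0.954), *HR* (0.953) and *GABPB1-AS1* (0.929) were nearest to *NR4A1*. For *IER2* they were *CAMKK2* (0.988), *TARDBP* (0.979) and *SF3B3* (0.975), and for *ATF3* they were *NAV1* (0.982), *NOL4L* (0.979) and *BMS1P5* (0.977). The range of *MYH10* was narrower than that of *EGR1*, from 49.7 to 139 CPM.

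*EGR1* lies at chr5:137801168-137804992 (hg19, plus strand, 2 exons), *NR4A1* at chr12:52416616-52453291 (plus), *NR4A2* at chr2:157180949-157198860 (minus), *NR4A3* at chr9:102584137-102629173 (plus) and *EGR2* at chr10:64571756-64578927 (minus). *IER2* lies at chr19:13261225-13265725 (plus), *IER3* at chr6:30710976-30712325 (minus), *IER5* at chr1:181057836-181062036 (plus, 1 exon) and *ATF3* at chr1:212738676-212794119 (plus). The annotation places antisense long noncoding RNAs over *EGR3*, *NR4A1*, *NR4A3*, *IER2* and *IER3*, and another on the same strand over *EGR2*. The strand setting of the counting is not given in the sources used here, so reads of these 6 genes and their neighbours could not be separated.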

How the data were processed

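RNA-seq of polyadenylated RNA from 9 A549 libraries was read from the raw count table that the authors deposited, as whole-number counts per gene without normalization. Per the labels and methods, reads from stranded libraries were aligned to hg19 with STAR 2.7.10b, and the study used DESeq2 1.26.0. The counting program, annotation and strand setting are not given in the sources used here. Total counts per library ranged from 14507228 to 20456341. Groups were taken from the labels.

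Each comparison was fitted over the libraries of its 2 groups with edgeR 4.0.16 in R 4.3.3 (TMM scaling, filterByExpr, two-sided quasi-likelihood test, Benjamini-Hochberg adjustment, call at an adjusted p of 0.05). The standard error is the size of the log2 fold change divided by the root of F. Alternatives used DESeq2 1.42.0, limma 3.58.1, other scalings, no filter, all 9 libraries, replicate blocks, a length and GC correction (loess span 0.5), the threshold of the study (log2 fold change beyond 0.5 and unadjusted p under 0.05) and leaving out each library. Procedures were tested on simulated counts. Of the 26364 gene names, 20651 matched GENCODE v44 on GRCh37 directly and 1356 by an older symbol, and 28 names in the table look like dates. The genes named are the 10 members, *FOS*, *ALK*, up to 4 called genes of largest change per list, and the 3 genes most like *EGR1*, *NR4A1*, *IER2* and *ATF3* (mean of at least 50 counts, log2 of CPM plus 1), of which 1 is not reported here. The members and lists were chosen with earlier results of these data known.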

Additional observations from a re-analysis of the deposited data

How the results depend on the processing

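Depth limits *EGR2*, *EGR3* and *NR4A3*, and the spread between the control and between the *LA* libraries limits every comparison that uses them. Scaling by library size alone moved the median log2 fold change of all genes in *LA* against control from 0.044 to 0.33, and the share of calls that were higher from 49.0% to 70.1%. In sgScr against control the median moved from 0.019 to 0.20, and in sgFOS against control from 0.017 to 0.22. Where a value moved, the cause was not tested.

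In *LA* against control the 5 calls held under 9 of 9 alternatives, among them an unplanned crossed replicate block, and none was called lower. *NR4A3* and *EGR3* were added without the filter, and *NR4A3* with all 9 libraries. At the threshold of the study 6 members were higher, with *NR4A3* added. All genes called numbered 4977 at the threshold of the study, 6799 with all 9 libraries in one fit, 1519 with the replicate block, 3878 with a crossed replicate block added after seeing the data (as were the list counts by other tools) and 1401 with the length and GC correction. *IER3* was at 0.056 by library size and 0.72 with the length and GC correction, under which *IER2* was at 0.42. Leaving out a library moved *IER2* from -1.23 (without *LA* replicate 1) to 0.17 (without *LA* replicate 2) and 0.19 (without control replicate 1), and gave 1 to 5 members higher, 0 lower and 253 to 5078 genes called in all.

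In sgFOS against sgScr the threshold of the study gave 0 members higher, 2 lower and 818 genes in all. DESeq2 called 1824 genes in all, and the fit of all 9 libraries called 0 members higher, 0 lower and 0 genes in all. Leaving out a library gave 1 member higher, 4 to 5 lower and 1916 to 3518 genes in all.

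In sgScr against *LA* the members called higher were 2 at the threshold of the study, 1 by DESeq2, 2 by limma with sample weights and 2 with the replicate block. Limma and the block each called 3 lower, with 1845 and 1230 genes in all, and the fit of all 9 libraries called 1436 genes. Leaving out a library gave 0 to 3 higher, 1 to 6 lower and 389 to 9926 genes in all.

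In sgScr against control the threshold of the study and the length and GC correction each called 1 member lower. Limma called 2 higher and 3817 genes in all, and the replicate block 3480 genes. *IER3* was at 0.14 by library size, 0.82 with the correction (adjusted p = 0.00955, edgeR), -0.18 without control replicate 2 and 0.067 without control replicate 1. Leaving out a library gave 1 to 6 higher, 0 to 2 lower and 3 to 11715 genes in all.

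In sgFOS against control the members called higher were 3 at the threshold of the study, 2 by limma, 0 by library size, 2 with all 9 libraries and 3 with the length and GC correction, and 1 was called lower at the threshold of the study and with the correction. All genes called numbered 5286, 3807, 0, 5824 and 1987 in that order, 3662 by DESeq2, 1005 without the filter and 3042 with the replicate block. *NR4A2* was at 0.11 and *IER3* at 0.028 by library size, *NR4A1* at 0.16 and *IER3* at 0.67 with the correction, and *NR4A2* at -0.33 without control replicate 1, 0.011 without sgFOS replicate 2 and 0.24 without control replicate 2. Leaving out a library gave 1 to 4 higher, 0 to 3 lower and 106 to 11450 genes in all.

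The replicate numbers did not pair the libraries. Deviations of same-numbered control and *LA* libraries from their group means had a correlation of -0.289 across 11900 genes, and those of the other groups ranged from -0.173 to 0.0675. With the replicate block *EGR1* (1.36, adjusted p = 0.0251, edgeR) and *IER2* (1.21, adjusted p = 0.0222) were called in sgScr against *LA* and *NR4A2* and *ATF3* were not, *NR4A1* was not called in sgScr against control, and *IER3* was not called in sgFOS against sgScr (adjusted p = 0.0561).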
